A study of Mus musculus with 76 samples.

Results

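Regulatory T (Treg) cells and CD4 T cells sorted from the mouse thymus at d120 were compared by bulk RNA sequencing. The comparison used every library of the sorted-cell table titled as thymic Treg or thymic CD4 of that day: 12 libraries, out of 46 in that table and 76 in the series. Of the 12, 6 were labelled Treg and 6 CD4, and each population had 3 libraries labelled SOD1 mutant (genotype Sod1Mut) and 3 labelled wild type (WT). All carry the strain label SOD1-G93A, WT libraries included, and all came from digested thymus that was stained and sorted by flow cytometry before RNA was copied with the SMARTseq v4 low input kit. SOD1-G93A mice carry a mutant human SOD1 transgene and are used as a model of amyotrophic lateral sclerosis. The labels state neither the stains and gates nor the sex of the mice or the number of mice per library. Nothing in the labels says that libraries of 1 group came from separate mice, so every p-value below measures the spread between these libraries, which may be technical.

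Treg cells are CD4 T cells that restrain immune responses, and their lineage depends on the transcription factor Foxp3. Thymocytes pass from a double-negative stage, which is driven by Notch signals and rearranges the T cell receptor (TCR) beta gene, through a double-positive CD4 CD8 stage to single-positive CD4 or CD8 cells. Treg cells arise among CD4 single-positive cells that receive strong TCR signals, and interleukin-2, bound by a receptor whose alpha chain is CD25 (Il2ra), promotes Foxp3 expression in them through STAT5. The thymus also holds gamma delta T cells, natural killer T (NKT) cells and other innate-like T cells, and mature Treg cells that have returned from the periphery.

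Depth differed between the populations. Treg libraries held 3241250 to 34151147 counts (median 11093447) and CD4 libraries 837050 to 2239878 (median 1809665), so low levels were measured less precisely in CD4 cells. Rank correlations of expression ran from 0.895 to 0.969 among Treg libraries, from 0.761 to 0.911 among CD4 libraries and from 0.775 to 0.885 between the populations. The level of Sod1, whose mouse and human reads cannot be told apart here, ran from 267 to 778 CPM (counts scaled to a total of 1000000 per library) in Treg libraries labelled SOD1 and from 51.8 to 78.8 CPM in those labelled WT. In CD4 libraries it ran from 529 to 993 CPM and from 64.2 to 217 CPM, so no library went against its genotype label.

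The promoters of 4 genes that mark the contrast are shown because the results turn on these genes: Foxp3 and Il2ra, which were higher in Treg libraries, and Klrc1 and Eomes, a natural killer (NK) receptor gene and a T-box factor gene, which were higher in CD4 libraries. Each is 300 bases from RefSeq on build GRCm38.p6, 5′ to 3′ on the gene's strand, from 250 bases before to 50 after a start site. Capitals mark a match on either strand to 1 of 7 motifs that were searched: the NF-kappaB motif, TTCNNNGAA for STAT, AAAGGTCA for NR4A, TGTTTAC for forkhead factors, TGANTCA for AP-1, GTGGGAA for RBPJ and AGGTGTGA for T-box factors. The last pair of motifs was chosen after expression values had been seen.
Foxp3, window 1, chrX:7579426-7579725, plus strand: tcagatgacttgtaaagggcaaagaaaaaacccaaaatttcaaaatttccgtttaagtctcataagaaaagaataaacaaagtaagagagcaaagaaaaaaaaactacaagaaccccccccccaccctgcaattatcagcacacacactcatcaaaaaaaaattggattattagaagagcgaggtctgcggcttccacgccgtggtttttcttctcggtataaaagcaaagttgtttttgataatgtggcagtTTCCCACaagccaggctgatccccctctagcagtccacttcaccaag
Foxp3, window 2, chrX:7580233-7580532, plus strand: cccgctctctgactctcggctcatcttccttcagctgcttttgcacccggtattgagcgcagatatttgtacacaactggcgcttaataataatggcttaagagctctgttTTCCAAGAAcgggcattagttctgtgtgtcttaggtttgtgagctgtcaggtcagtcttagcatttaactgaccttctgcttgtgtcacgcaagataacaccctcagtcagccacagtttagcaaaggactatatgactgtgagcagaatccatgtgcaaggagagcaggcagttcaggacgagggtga
Il2ra, chr2:11642542-11642841, plus strand: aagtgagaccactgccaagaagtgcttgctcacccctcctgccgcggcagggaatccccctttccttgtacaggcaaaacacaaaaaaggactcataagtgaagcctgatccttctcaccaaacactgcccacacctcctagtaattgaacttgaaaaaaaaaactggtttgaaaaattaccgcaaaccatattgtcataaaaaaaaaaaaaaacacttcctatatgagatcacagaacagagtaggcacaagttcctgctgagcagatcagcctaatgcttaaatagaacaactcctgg
Klrc1, chr6:129678924-129679223, minus strand: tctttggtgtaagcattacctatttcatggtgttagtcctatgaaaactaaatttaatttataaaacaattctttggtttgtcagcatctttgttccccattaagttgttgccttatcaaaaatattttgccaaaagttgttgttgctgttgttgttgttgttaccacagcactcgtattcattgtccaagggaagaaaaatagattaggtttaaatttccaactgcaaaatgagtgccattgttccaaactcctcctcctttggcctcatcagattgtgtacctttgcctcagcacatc
Eomes, chr9:118477939-118478238, plus strand: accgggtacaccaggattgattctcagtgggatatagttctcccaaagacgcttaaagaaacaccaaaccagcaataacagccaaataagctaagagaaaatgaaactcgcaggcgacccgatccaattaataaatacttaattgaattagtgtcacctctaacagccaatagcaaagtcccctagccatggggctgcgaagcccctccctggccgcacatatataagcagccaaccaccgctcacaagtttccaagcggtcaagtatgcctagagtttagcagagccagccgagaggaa
Window 1 of Foxp3 held 1 match to the RBPJ motif, and 6.39% of all 27025 RefSeq windows of this length held one. Window 2 held 1 match to the STAT motif, present in 8.47% of all windows. Neither the Il2ra, the Klrc1 nor the Eomes window held any of the 7 motifs, which says only that these letters are not in those 300 bases. The other motifs were present in 1.62% (NF-kappaB), 1.46% (NR4A), 3.55% (forkhead), 7.93% (AP-1) and 1.27% (T-box) of all windows. A match is a description of the letters and not a measured binding site.

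The defining Treg genes separated the labelled populations without overlap. Foxp3 ran from 69.99 to 233 CPM (median 104) in the 6 Treg libraries and from 8.03 to 19.6 CPM (median 17.7) in the 6 CD4 libraries. All 6 Treg libraries lay above all 6 CD4 libraries, with a log2 fold change of 3.04 ± 0.38 (standard error; edgeR quasi-likelihood test with genotype as covariate, Benjamini-Hochberg adjusted p = 5.87e-13). Il2ra ran from 397 to 654 CPM (median 475) in Treg and from 0 to 34.3 CPM (median 12.2) in CD4 libraries, again without overlap, a log2 fold change of 5.03 ± 0.51 (adjusted p = 5.69e-20). Whether CD25 protein was among the stains of the sort is not given, so the Il2ra difference checks the label and is no finding. The level of Foxp3 in CD4 libraries was above 0 in each, so the CD4 sort was low in Foxp3 transcripts but did not lack them. In bulk RNA, fewer cells of a type and less RNA per cell cannot be told apart, here and in all values below.

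Cd4 itself did not pass the test, at 100.3 to 125 CPM (median 113) in Treg and 45.4 to 213 CPM (median 99) in CD4 libraries (log2 fold change −0.01 ± 0.29, adjusted p = 0.991). Both populations also held Cd8a transcripts, the alpha chain of the CD8 co-receptor, at 123 to 175 CPM (median 148) in Treg and 147 to 366 CPM (median 238) in CD4 libraries. Per kilobase of exon, the mean level of Cd8a was 41.1 CPM in Treg and 66.5 CPM in CD4 libraries, against 28.2 and 28.8 CPM for Cd4. Cd8a was lower in Treg libraries with overlapping groups (log2 fold change −0.69 ± 0.22, adjusted p = 0.0228), and this call was lost in 12 of 25 alternative settings. The mean per length was thus higher for Cd8a than for Cd4 in both sorts. Among the constant regions of the TCR, Trac was lower in Treg libraries, at 282 to 492 CPM (median 350.3) against 626 to 1552 CPM (median 931) (log2 fold change −1.44 ± 0.27, adjusted p = 4.56e-06). Trbc1 and Trbc2 did not pass, with log2 fold changes of 0.25 and 0.04.

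**Figure D1:**
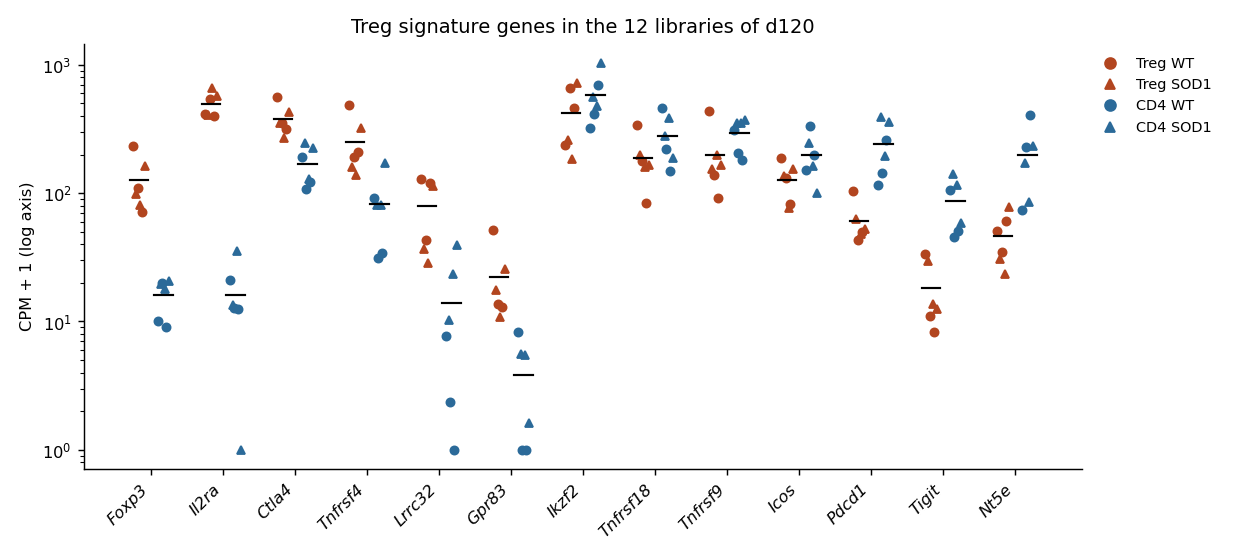
CPM + 1 on a log axis for 13 Treg signature genes in each of the 12 libraries of d120, coloured by population with the genotype as the marker shape. Foxp3, Il2ra, Ctla4 and Gpr83 separate the populations upward and Pdcd1 and Tigit downward, while Ikzf2 and Tnfrsf18 overlap.

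Across the transcriptome 12485 genes were tested. In Treg libraries 834 were higher (6.68% of genes tested) and 750 lower (6.01%) with a median log2 fold change of 0.04 over all genes, which the scaling holds near 0. Groups of 6 that did not overlap were found for 542 genes with Treg above CD4 (4.34%) and 288 with CD4 above Treg (2.31%), together 6.65%. At least a 4-fold difference was reached by 369 of the higher and 165 of the lower genes. An unadjusted p under 0.05 was reached by 3109 genes.

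Beside Foxp3 and Il2ra, the genes with the smallest p among those higher in Treg libraries without overlap include Rapgef3, which encodes the cyclic AMP sensor EPAC1. Rapgef3 ran from 246 to 427 CPM (median 329) against 27.9 to 67.9 CPM (median 53.6) (log2 fold change 2.72 ± 0.25, adjusted p = 3.05e-25). Tedc1, which encodes a tubulin-associated centriole protein, ran from 86.8 to 155 CPM (median 118) against 6.06 to 15.4 CPM (median 11.6) (log2 fold change 3.43 ± 0.32, adjusted p = 9.63e-24). The next genes were close to absent from the CD4 libraries. Sstr2, a somatostatin receptor, ran from 31.4 to 75.3 CPM (median 62.4) in Treg and from 0 to 3.03 CPM (median 0.227) in CD4 libraries (log2 fold change 6.29 ± 0.65, adjusted p = 2.62e-19). Scin, the actin-severing protein scinderin, ran from 26.5 to 75.3 CPM (median 50.6) against 0 to 2.81 CPM (median 0) (log2 fold change 6.69 ± 0.7, adjusted p = 8.65e-19), on 5 counts in all CD4 libraries together. Slc5a9, a sugar transporter, ran from 11.5 to 33.9 CPM (median 19.3) in Treg and was at 0 in all 6 CD4 libraries, at least 66.7-fold higher against a floor of 3 counts over the CD4 libraries. Scel, which encodes sciellin, ran from 19.4 to 36.8 CPM (median 31.7) in Treg libraries, with 1 count in all CD4 libraries.

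Ndrg1, a stress-responsive gene, had a log2 fold change of 2.71 ± 0.3, Aldh2, mitochondrial aldehyde dehydrogenase, one of 2.92 ± 0.33, and Fkbp5, a glucocorticoid-induced co-chaperone, one of 2.43 ± 0.28. Marcks, an actin-binding substrate of protein kinase C, was higher by 1.75 ± 0.21, at 395 to 574 CPM (median 517) against 122 to 186 CPM (median 145). Myl10, a myosin light chain gene, was close to absent from the CD4 libraries, at 14.7 to 58.6 CPM (median 35.5) against 0 to 1.21 CPM (median 0.227). Dntt and Cd24a completed the ranking and are described with the thymocyte genes.

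Among genes lower in Treg libraries, the smallest p belonged to Cd7, a T and NK cell surface glycoprotein. Cd7 ran from 30.7 to 48.1 CPM (median 36.4) in Treg and from 421 to 791 CPM (median 449.8) in CD4 libraries, a log2 fold change of −3.74 ± 0.25 (adjusted p = 1.59e-48). Ctsw, the cathepsin of cytotoxic lymphocytes, ran from 30.3 to 62.8 CPM (median 46.6) against 285 to 505 CPM (median 400.2) (log2 fold change −3.12 ± 0.25, adjusted p = 1.86e-32). Car2, carbonic anhydrase 2, ran from 9.83 to 40.4 CPM (median 18.4) against 168 to 314 CPM (median 280.1) (log2 fold change −3.71 ± 0.33, adjusted p = 1.73e-25). None of these 3 genes had a Treg library as high as the lowest CD4 library. Klhdc2, a substrate receptor of a ubiquitin ligase, and Neurl3, a ubiquitin ligase gene, were lower too, with log2 fold changes of −2.27 ± 0.21 and −2.67 ± 0.26. Tmprss6, a membrane serine protease best known from iron regulation in liver, ran from 0 to 0.383 CPM (median 0.149) against 7.27 to 47.5 CPM (median 19.7). Of the 15 genes so ranked, 7 encode killer cell lectin-like receptors, which are described with the NK genes.

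Of 13 tested Treg lineage factors, only Foxp3 was called, beside 6.68% of all genes called higher. The list's median log2 fold change was 0.03, against 0.04 over all genes. Ikzf2, which encodes Helios, ran from 183 to 721 CPM (median 359) in Treg and from 323 to 1026 CPM (median 515) in CD4 libraries, with overlapping groups (log2 fold change −0.45 ± 0.36, adjusted p = 0.466). Runx1 and Cbfb, partners of Foxp3, had log2 fold changes of 0.03 and −0.08, Gata3 one of 0.43 and Satb1, a chromatin organiser, one of −0.38, none of which passed.

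Treg surface and suppressive genes moved in both directions: of 23 tested, 3 were higher and 5 lower, beside 6.68% and 6.01% of all genes. Ctla4, the inhibitory receptor that competes with CD28, ran from 266 to 562 CPM (median 352) in Treg and from 106 to 243 CPM (median 158) in CD4 libraries, without overlap (log2 fold change 1.19 ± 0.27, adjusted p = 0.000355). Lrrc32, which encodes GARP, the docking receptor of latent TGF-beta, ran from 27.7 to 129 CPM (median 77.8) against 0 to 38.5 CPM (median 7.95), with overlap (log2 fold change 3.1 ± 0.8, adjusted p = 0.00233). Gpr83, a receptor gene of the Treg signature, ran from 9.77 to 50.8 CPM (median 14.6) against 0 to 7.27 CPM (median 2.57) (log2 fold change 2.84 ± 0.84, adjusted p = 0.00998). The Lrrc32 call was lost with voom.

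The 5 lower genes include inhibitory receptors and effector genes. Pdcd1, encoding PD-1, ran from 42.4 to 103 CPM (median 50.3) in Treg and from 115 to 391 CPM (median 226) in CD4 libraries, and no library of one population reached the range of the other (log2 fold change −1.97 ± 0.33, adjusted p = 2.93e-07). Tigit, an inhibitory receptor of T and NK cells, ran from 7.35 to 32.6 CPM (median 12) against 44.4 to 141 CPM (median 81.4) (log2 fold change −2.27 ± 0.44, adjusted p = 1.58e-05). Nt5e, the ecto-enzyme CD73 that forms adenosine, ran from 22.6 to 76.9 CPM (median 41.7) against 73.3 to 405 CPM (median 199) with slight overlap (log2 fold change −2.11 ± 0.4, adjusted p = 9.74e-06). Gzmb, the protease granzyme B, and S100a6, a calcium-binding protein, were lower, with log2 fold changes of −2.14 ± 0.31 and −1.92 ± 0.41. Il10, Tgfb1 and Ebi3, the cytokine genes of the list, had log2 fold changes of 0.79, 0.34 and 1.49 and did not pass.

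Within the tumour necrosis factor receptor family and its adaptors, 2 of 20 tested genes were higher and 3 lower, beside 6.68% and 6.01% of all genes. Tnfrsf4, the costimulatory receptor OX40, ran from 137 to 483 CPM (median 198) in Treg and from 30.4 to 172 CPM (median 80.1) in CD4 libraries, with overlap (log2 fold change 1.69 ± 0.42, adjusted p = 0.0012). Tnfrsf18, which encodes GITR, ran from 82.6 to 337 CPM (median 171) against 149 to 460.3 CPM (median 250.3) and did not pass (log2 fold change −0.59 ± 0.33, adjusted p = 0.247). Tnfrsf9, the receptor 4-1BB, did not pass either, at a log2 fold change of −0.55 ± 0.34. Fasl, the death ligand, was lower, from 2.59 to 11.5 CPM (median 5.27) against 31.5 to 105 CPM (median 59) (log2 fold change −3.38 ± 0.51, adjusted p = 3.93e-09). Traf1, an adaptor induced by NF-kappaB, was lower as well (log2 fold change −0.98 ± 0.26, adjusted p = 0.00294).

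Of the genes for interleukin-2 and gamma chain cytokine signals, 3 of 19 tested were higher in Treg libraries and 6 lower. The shares over all genes were 6.68% and 6.01%. The receptor's chains went in opposite directions. While Il2ra was higher, Il2rb, the beta chain shared with the interleukin-15 receptor, ran from 95.9 to 339.8 CPM (median 138) in Treg and from 353 to 1372 CPM (median 799) in CD4 libraries (log2 fold change −2.22 ± 0.35, adjusted p = 4.34e-08). Il2rg, the common gamma chain, was lower (log2 fold change −0.66 ± 0.21, adjusted p = 0.0191), a call lost in 8 of 25 settings. Il7r, the interleukin-7 receptor alpha chain, ran from 52.1 to 70.9 CPM (median 59.3) against 73.4 to 275 CPM (median 180.2) (log2 fold change −1.61 ± 0.29, adjusted p = 1.83e-06). Jak1, the kinase that binds the receptor chains, was lower, at 283 to 459 CPM (median 382) against 548 to 1646 CPM (median 1099), without overlap (log2 fold change −1.5 ± 0.25). Il21r, the interleukin-21 receptor, was lower too (log2 fold change −1.41 ± 0.28). Il9r, the interleukin-9 receptor, was higher, at 8.65 to 29.1 CPM (median 12) against 0 to 4.42 CPM (median 0.303) (log2 fold change 4.06 ± 0.93, adjusted p = 0.000366). The transcription factors Stat5a and Stat5b and the feedback genes Cish and Socs1 did not pass, with log2 fold changes of −0.17, 0.1, 0.46 and 0.3. Socs2, another feedback gene, was higher (log2 fold change 1.09 ± 0.38, adjusted p = 0.0369), a call lost in 15 of 25 settings.

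Other cytokine receptors gave 2 higher and 4 lower of 20 tested, beside 6.68% and 6.01% of all genes. Il10ra, the interleukin-10 receptor alpha chain, ran from 58.1 to 80.9 CPM (median 69.1) in Treg and from 5.63 to 24.1 CPM (median 9.24) in CD4 libraries (log2 fold change 2.7 ± 0.36, adjusted p = 1.08e-11). Il1rl1, the interleukin-33 receptor ST2, ran from 2.59 to 37.3 CPM (median 8.8) against 0 to 4.98 CPM (median 0), with overlap (log2 fold change 3.67 ± 0.9, adjusted p = 0.00123). The receptors of interleukin-12 and interleukin-18, which drive interferon gamma in T and NK cells, lay on the other side. Il12rb2 and Il18rap were lower, with log2 fold changes of −2.02 ± 0.44 and −2.92 ± 0.47 (adjusted p = 0.000142 and 6.34e-08).

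Genes of earlier thymocytes were among those higher in Treg libraries. Of 20 tested genes of recombination and the double-positive stage, 7 were higher and 2 lower, with a median log2 fold change of 0.85. Among all genes tested, 6.68% were higher and 6.01% lower. Dntt, the enzyme that adds bases at TCR joints, ran from 285 to 485 CPM (median 365) in Treg and from 12 to 86 CPM (median 44.3) in CD4 libraries (log2 fold change 3.0 ± 0.34, adjusted p = 9.87e-16). Cd24a, a surface protein lost as thymocytes mature, ran from 447 to 622 CPM (median 517) against 95.3 to 198 CPM (median 143) (log2 fold change 1.91 ± 0.23, adjusted p = 1.14e-14). Ptcra, the pre-TCR alpha chain, ran from 18.2 to 53.8 CPM (median 22.9) against 1.13 to 10.5 CPM (median 4.11) (log2 fold change 2.59 ± 0.54, adjusted p = 6.78e-05). None of the 3 overlapped between populations. Aqp11 and Cd1d1, a water channel gene and the lipid-presenting molecule that selects NKT cells, were higher by 2.43 ± 0.35 and 1.39 ± 0.31, and Arpp21 and Endou by 1.33 ± 0.39 and 1.34 ± 0.47 with overlap. The recombinase genes Rag1 and Rag2 did not pass. Rag1 ran from 59.6 to 89.2 CPM (median 84.1) against 6.31 to 219 CPM (median 56.5), and Rag2 from 5.73 to 26.7 CPM (median 19.4) against 0 to 18.3 CPM (median 5.95). The 2 lower genes were Cd8a and Cd8b1, the CD8 chains, whose calls were lost in 12 and 11 of 25 settings. Of the 20 tested genes, 17 had a positive log2 fold change, and 7 of these passed. Over all genes the median log2 fold change was 0.04, and the count of signs was not tested.

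Notch pathway genes and genes of the double-negative stage were listed after values had been seen. They gave 9 higher and 1 lower of 18 tested (6.68% and 6.01% over all genes), with a median log2 fold change of 1.82. Notch1, the receptor that commits cells to the T lineage, ran from 186 to 289.7 CPM (median 242) in Treg and from 23.7 to 153 CPM (median 34) in CD4 libraries (log2 fold change 2.23 ± 0.39, adjusted p = 8.18e-07). Notch3, a receptor of immature thymocytes, ran from 14.1 to 30.3 CPM (median 22.5) against 0 to 2.42 CPM (median 0.227) (log2 fold change 5.22 ± 0.75, adjusted p = 5.54e-10). Hes1, a repressor induced by Notch, ran from 71.2 to 162 CPM (median 117) against 0 to 16.3 CPM (median 7.18) (log2 fold change 3.89 ± 0.56, adjusted p = 5.41e-10). Dtx4, one of the Deltex family of Notch regulators, ran from 28.5 to 65.9 CPM (median 48) against 0 to 5.44 CPM (median 4.0) (log2 fold change 3.78 ± 0.53, adjusted p = 1.34e-10). In each of these 4 genes every Treg library was above every CD4 library. Rbpj, the DNA-binding partner of Notch, was the exception and was lower (log2 fold change −1.28 ± 0.45, adjusted p = 0.0379). Il2ra and Ptcra are members too, since double-negative thymocytes also express them. Nrarp and Hey1, other known Notch targets, had log2 fold changes of −0.6 and 0.82 and did not pass, and neither did Kit, a marker of the earliest progenitors, at −0.3. The summed level of the list ran from 1226 to 1633 CPM in Treg and from 479.9 to 889 CPM in CD4 libraries. Il2ra, whose difference only checks the label, is part of this sum and of the 9 higher genes. Ptcra is as well, and it is also counted in the recombination list.

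Markers of gamma delta T cells moved with these genes: 7 of 10 tested were higher and none lower, with a median of 1.75. The shares over all genes were 6.68% and 6.01%. Blk, a member called higher, is counted among the B cell markers too. Both constant regions of the gamma chain named here were higher. Tcrg-C1 ran from 59 to 169 CPM (median 94) in Treg and from 10.7 to 40.9 CPM (median 26.7) in CD4 libraries (log2 fold change 1.84 ± 0.36, adjusted p = 1.21e-05), and Tcrg-C2 from 156 to 348 CPM (median 264) against 21.8 to 117 CPM (median 94.3) (log2 fold change 1.66 ± 0.33, adjusted p = 2.06e-05). Blk, a kinase of B cells and of gamma delta cells that make interleukin-17, ran from 20.2 to 37.3 CPM (median 24.1) against 0 to 6.66 CPM (median 0). Cd163l1, a scavenger receptor of gamma delta cells, ran from 7.98 to 25.4 CPM (median 14.7) against 0 to 5.27 CPM (median 0) (log2 fold change 4.44 ± 1.04, adjusted p = 0.000523). Sox13, a factor of the gamma delta lineage, ran from 0 to 14.1 CPM (median 7.34) in Treg libraries, with 1 count in all CD4 libraries. The defining constant region of the delta chain, Trdc, was present in every library and did not pass, at 91.9 to 243 CPM (median 187) against 105 to 239.8 CPM (median 173) (log2 fold change 0.14 ± 0.27, adjusted p = 0.805). Gamma genes of this family resemble each other, and their separate counts are uncertain. Summed over the list, the level ran from 602 to 1023 CPM in Treg and from 294 to 484 CPM in CD4 libraries. The part of these markers in the results for Il2ra, Notch and recombination genes was not tested.

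**Figure D2:**
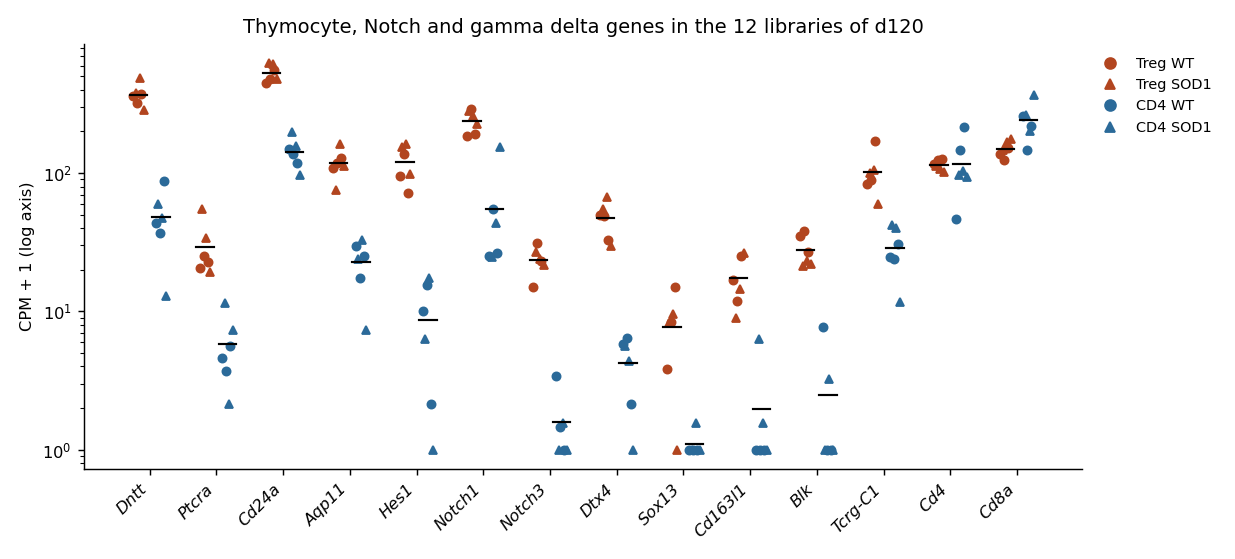
CPM + 1 on a log axis for 14 thymocyte, Notch and gamma delta genes in each of the 12 libraries of d120, coloured by population with the genotype as the marker shape. Dntt, Ptcra, Cd24a, Hes1, Notch1 and Notch3 lie higher in all 6 Treg libraries, while Cd4 and Cd8a overlap.

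Of 23 T lineage transcription factors tested, 5 were higher and 6 lower, beside 6.68% and 6.01% of all genes. The higher ones were Bcl11b by 1.16 ± 0.25, Tcf3 (the E protein E2A) by 1.16 ± 0.31, Myb by 1.07 ± 0.27, Tcf7 by 0.77 ± 0.25 and Sox4 by 0.55 ± 0.19 on the log2 scale. Among the lower ones were Eomes and Tbx21, T-box factors of cytotoxic and interferon-producing cells, Zbtb16, the factor PLZF of innate-like T cells, and Id2, which opposes E proteins (log2 fold change −1.11 ± 0.25, adjusted p = 0.000318). Eomes ran from 0 to 1.48 CPM (median 0.61) in Treg and from 31 to 102 CPM (median 47.5) in CD4 libraries (log2 fold change −6.31 ± 0.56, adjusted p = 5.44e-26). Zbtb16 ran from 0.187 to 1.94 CPM (median 1.23) against 1.26 to 43.1 CPM (median 15.2) (log2 fold change −3.98 ± 0.7, adjusted p = 1.08e-06). Tbx21 ran from 0 to 10.5 CPM (median 4.67) against 10.7 to 33.3 CPM (median 22.7) (log2 fold change −2.14 ± 0.73, adjusted p = 0.0329).

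Of the NK, innate-like and cytotoxic genes, 18 of 20 tested were lower in Treg libraries, beside 6.01% of all genes, and 1 was higher. Its median log2 fold change was −3.57, and its summed level ran from 656 to 1156 CPM in Treg and from 2199 to 4702 CPM in CD4 libraries. The summed levels did not overlap, and the CD4 libraries were the high ones. Klrd1, the CD94 subunit of NK receptors, ran from 1.93 to 5.88 CPM (median 2.49) in Treg and from 69.4 to 203 CPM (median 120.03) in CD4 libraries (log2 fold change −5.45 ± 0.37, adjusted p = 1.27e-44). Klrk1, the activating receptor NKG2D, ran from 4.29 to 11.9 CPM (median 7.15) against 40.4 to 187 CPM (median 100.2) (log2 fold change −3.85 ± 0.43, adjusted p = 1.81e-16). Xcl1, a chemokine of NK and activated T cells, ran from 1.12 to 6.83 CPM (median 3.71) against 71.9 to 538 CPM (median 176) (log2 fold change −5.91 ± 0.53, adjusted p = 2.74e-25). Every CD4 library was above every Treg library for these genes. Ncr1, the receptor NKp46 that defines NK cells, was among the 18 lower genes. It was at 0 in 4 of 6 Treg and 2 of 6 CD4 libraries and reached 22.2 CPM in the highest CD4 library. Fcer1g, a signalling adaptor, Cd160, a receptor of cytotoxic cells, and Nkg7, a granule protein, were lower, with log2 fold changes of −2.73 ± 0.38, −3.29 ± 0.41 and −1.56 ± 0.34. Which cells of the CD4 sort held these transcripts, and their part in the other results, was not tested.

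Granule proteases split. Gzma, granzyme A, was the only member higher in Treg libraries, at 189.8 to 359 CPM (median 260.2) against 0.906 to 59.6 CPM (median 17.9), without overlap (log2 fold change 3.83 ± 0.65, adjusted p = 3.54e-07). Gzmb went the other way, at 60.3 to 127 CPM (median 87.6) against 177 to 685 CPM (median 425) (log2 fold change −2.14 ± 0.31, adjusted p = 1.41e-09). Prf1, perforin, did not pass, at 0 to 4.13 CPM (median 2.81) against 0 to 30.8 CPM (median 9.63).

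The killer cell lectin-like receptor family, listed after values had been seen, has 26 members in the table, of which 19 were tested. In Treg libraries 16 were lower and none higher, beside 6.01% and 6.68% of all genes, with a median log2 fold change of −6.04. Klrb1c, Klrd1, Klrk1, Klra1, Klra7, Klre1 and Klrc1 are also counted in the NK list above, so these lists are not separate results. These 16 genes lie in 1 stretch of chromosome 6 between 128609227 and 130386874 (build mm10), the NK gene complex. Klrc1, the inhibitory receptor NKG2A, ran from 0 to 3.69 CPM (median 1.15) in Treg and from 153 to 269 CPM (median 212) in CD4 libraries (log2 fold change −7.27 ± 0.79, adjusted p = 2.79e-17). Klra1, a Ly49 receptor, ran from 0 to 0.273 CPM (median 0) against 22.4 to 63.1 CPM (median 39.6) (log2 fold change −8.89 ± 0.88, adjusted p = 4.17e-21). Klra9, another Ly49 receptor, was at 0 in 5 of 6 Treg libraries and ran from 11.9 to 112 CPM (median 60.7) in CD4 libraries (log2 fold change −9.71 ± 0.9, adjusted p = 5.96e-24). The summed level of the family was 18.9 to 44.4 CPM in Treg and 558 to 1136 CPM in CD4 libraries. Transcripts of the family are alike, and for Klra3, Klra9, Klra5 and Klra6 the closest member matched at 90% or more of aligned bases (95.6% for Klra3 and Klra9, 90.6% for Klra5 and Klra6), so the separate counts of these genes are uncertain. Klrg1, a receptor of late effector and some Treg cells, was tested and did not pass (log2 fold change 2.11 ± 1.14, adjusted p = 0.231).

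**Figure D3:**
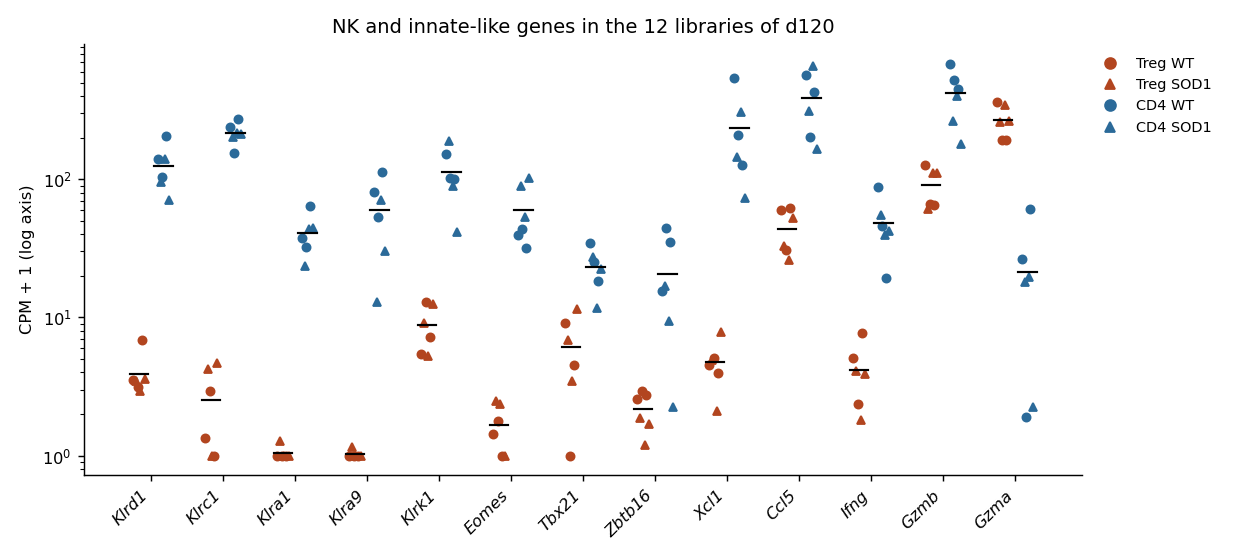
CPM + 1 on a log axis for 13 NK and innate-like genes in each of the 12 libraries of d120, coloured by population with the genotype as the marker shape. The 6 CD4 libraries lie above the 6 Treg libraries for Klrd1, Klrc1, Eomes, Xcl1, Ccl5 and Ifng, and Gzma is the reverse.

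Cytokine genes of helper and innate-like T cells were lower in Treg libraries in 6 of 12 tested, and none was higher. Among all genes tested, 6.01% were lower and 6.68% higher. Ifng, interferon gamma, ran from 0.809 to 6.76 CPM (median 2.99) in Treg and from 18.3 to 87.2 CPM (median 42.9) in CD4 libraries (log2 fold change −3.97 ± 0.56, adjusted p = 1.96e-10). Ccl5, a chemokine of memory and cytotoxic T cells, ran from 25.2 to 60.9 CPM (median 41.4) against 164 to 662 CPM (median 366) (log2 fold change −3.2 ± 0.37, adjusted p = 1.45e-15). Il4 was called too (log2 fold change −4.62 ± 1.66, adjusted p = 0.0437), but it was at 0 in 3 of 6 CD4 libraries, and without any 1 of the 3 CD4 libraries that held it (SOD1 1, SOD1 2 and WT 1) the call was lost. Il17a was at 0 in all 12 libraries.

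Genes of late maturation and exit from the thymus were mostly lower in Treg libraries. Of 24 tested, 14 were lower and 1 higher, beside 6.01% and 6.68% of all genes, with a median log2 fold change of −0.83. Ms4a4b, a membrane protein of mature T cells, ran from 48.8 to 252 CPM (median 129) in Treg and from 529.7 to 1965 CPM (median 1087) in CD4 libraries (log2 fold change −3.04 ± 0.39, adjusted p = 1.31e-12). Emb, embigin, ran from 300.3 to 504 CPM (median 319.7) against 893 to 1689.8 CPM (median 1426) (log2 fold change −1.98 ± 0.24, adjusted p = 2.07e-14). Gimap5, a GTPase needed for survival of mature T cells, ran from 32.1 to 70.6 CPM (median 45) against 125 to 528 CPM (median 204) (log2 fold change −2.53 ± 0.36, adjusted p = 4.67e-10). Gimap3, Gimap4 and Gimap6 were lower, with log2 fold changes of −1.58, −1.61 and −1.13, as were the class I genes H2-K1, H2-D1 and B2m, with −0.82, −0.84 and −1.03. Of the genes tied to exit itself, these did not pass: S1pr1, the receptor for the egress signal, at a log2 fold change of −0.69 ± 0.35, and Ccr7, the receptor for medullary and lymph node chemokines, at 0.27 ± 0.31. Klf2, which drives S1pr1, was lower (log2 fold change −0.65 ± 0.22, adjusted p = 0.0319), a call lost in 10 of 25 settings. Ly6c1, a marker of some mature T cells, was the member that was higher, at 7.06 to 16.5 CPM (median 11.9) in Treg libraries with 3 counts in all CD4 libraries.

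Of the chemokine receptors and adhesion genes, 7 of 22 tested were lower in Treg libraries and none higher (6.01% and 6.68% of all genes). Rgs2 and Rgs1, which dampen signals of chemokine receptors, were lower, with log2 fold changes of −1.68 ± 0.31 and −1.42 ± 0.31. So were Itgav, integrin alpha V, with −2.05 ± 0.34, and Cxcr6, a receptor of tissue-resident and innate-like T cells, with −2.31 ± 0.49. Ccr4, Ccr8 and Cxcr4 did not pass, with log2 fold changes of 1.98, 0.33 and 0.19.

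Genes that report TCR signal strength did not move together. Of 25 tested, 4 were higher and 5 lower, beside 6.68% and 6.01% of all genes, with a median of −0.20. Nr4a1, the common reporter of TCR signals, ran from 87.5 to 236 CPM (median 139.96) in Treg and from 44.8 to 295 CPM (median 153) in CD4 libraries and did not pass (log2 fold change −0.1 ± 0.39, adjusted p = 0.918). Nr4a2, of the same family, was lower, at 46.3 to 116 CPM (median 94.1) against 220.5 to 666 CPM (median 318) (log2 fold change −2.11 ± 0.31, adjusted p = 9.27e-10). Myc, which drives growth, was higher, at 200.3 to 321 CPM (median 237) against 16.1 to 173 CPM (median 68.7) (log2 fold change 1.6 ± 0.35, adjusted p = 0.000197). Spry1 and Spry2, Sprouty inhibitors of Ras signals, parted, with log2 fold changes of 2.0 ± 0.6 and −5.53 ± 0.98 (adjusted p = 0.0115 and 1.28e-06). Among 24 genes of the TCR machinery, 5 were higher and 4 lower, beside the same shares of all genes. Cd3e, a CD3 chain, was higher, at 553 to 1052 CPM (median 756) against 333 to 444 CPM (median 431) (log2 fold change 0.98 ± 0.2, adjusted p = 6.48e-05), and Cd28, the costimulatory receptor needed for thymic Treg cells, was lower, at 178 to 374 CPM (median 322) against 507 to 881 CPM (median 636) (log2 fold change −1.15 ± 0.23, adjusted p = 4.44e-05). Ptpn22, a phosphatase that limits TCR signals, was lower (log2 fold change −1.38 ± 0.24).

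In the NF-kappaB list, 4 of 22 tested genes were lower and 1 higher, beside 6.01% and 6.68% of all genes, with a median of −0.39. Nfkbia and Tnfaip3, inhibitors that NF-kappaB induces, were lower, with log2 fold changes of −0.89 ± 0.24 and −1.1 ± 0.35, and so was Relb, a subunit, with −0.75 ± 0.25. Ikbkg, the kinase scaffold NEMO, was higher by 1.74 ± 0.45. Rel, the subunit c-Rel that opens the Foxp3 locus, did not pass (log2 fold change −0.7 ± 0.28, adjusted p = 0.0737). The Relb and Tnfaip3 calls were lost in 14 and 8 of 25 settings.

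Transcripts of non-T cells were measured in both sorts. B cell markers gave 3 higher and 0 lower of 16 tested (Blk, Ighm and Spib), beside 6.68% and 6.01% of all genes. Their median log2 fold change was 1.33. Their summed levels, mostly immunoglobulin transcripts, were 4290 to 16555 CPM in Treg and 858 to 10519 CPM in CD4 libraries. The Ighm and Spib calls were each lost in 10 of 25 settings. Cd79a, a signalling chain of the B cell receptor, ran from 44.4 to 162 CPM (median 87.0) against 0 to 108 CPM (median 32.8) and did not pass (log2 fold change 1.3 ± 0.71, adjusted p = 0.238). Myeloid and dendritic cell markers gave 2 higher and 2 lower of 18 (6.68% and 6.01% over all genes), with summed levels of 837 to 1458 CPM in Treg and 266 to 1457 CPM in CD4 libraries. The higher ones were Ccl22, a chemokine that attracts CCR4-bearing cells, at 22.4 to 106 CPM (median 48.4) against 0 to 13.5 CPM (median 7.99) (log2 fold change 2.74 ± 0.51, adjusted p = 5.59e-06), and Fscn1, an actin bundler of mature dendritic cells, at 26.8 to 73.5 CPM (median 61.9) against 0 to 21.8 CPM (median 8.64) (log2 fold change 2.5 ± 0.52, adjusted p = 7.51e-05). The 2 lower ones were Fcgr3 and Zbtb46, calls that were lost in 1 and 7 of 25 settings. Itgam, the myeloid integrin CD11b, was at 0 in all 6 CD4 libraries. Of the thymic epithelial markers only 6 of 20 were tested and only Cldn4, a tight junction gene, was higher, at 36.4 to 72.5 CPM (median 43.7) against 6.19 to 13.8 CPM (median 8.39) (log2 fold change 2.46 ± 0.38, adjusted p = 8.62e-09). Foxn1, the factor that defines thymic epithelium, was at 0 in 5 of 6 Treg and all 6 CD4 libraries, and the summed epithelial level was 182 to 264 CPM in Treg and 89.4 to 146 CPM in CD4 libraries. Pdgfrb, a receptor of perivascular cells, ran from 6.59 to 24.1 CPM (median 13) in Treg libraries and was at 0 in all CD4 libraries, at least 47.9-fold higher against 3 counts over the CD4 libraries, while the collagen gene Col1a1 was at 0 in 3 of 6 Treg and all 6 CD4 libraries. The fibroblast and endothelial list summed to 58.4 to 120 CPM in Treg and 16.4 to 63.1 CPM in CD4 libraries, and the erythroid and platelet list to 3.85 to 65.8 CPM and 0 to 11.8 CPM. The part of these markers in the differences above was not tested.

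Of 24 S phase genes tested, 6 were higher in Treg libraries and none lower, beside 6.68% and 6.01% of all genes. The count of higher genes ran from 0 to 15 over 25 alternative settings. Mcm2, a subunit of the replicative helicase, was higher by 1.11 ± 0.24 (adjusted p = 0.000157) and Uhrf1, which maintains DNA methylation, by 1.3 ± 0.3 (adjusted p = 0.000449). Of 24 genes of the G2 and M phases, edgeR called none, and Mki67, the proliferation antigen, and Top2a, the topoisomerase of dividing cells, had log2 fold changes of −0.23 and −0.05. Whether the S phase genes differ from the G2 and M genes was not tested.

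Of the metabolic lists, 3 of 13 mitochondrially encoded transcripts were lower and none higher, 4 of 26 nuclear genes of oxidative phosphorylation were lower and 1 higher, and 2 of 19 glycolysis genes were higher. Over all genes, 6.68% were higher and 6.01% lower. The mitochondrial and oxidative counts ran from 0 to 12 and from 0 to 14 lower members over the alternative settings. The nuclear oxidative list summed to 11287 CPM in CD4 WT 1 and 7748 CPM in CD4 SOD1 2. In the other CD4 libraries it summed to 3535 to 5482 CPM, against 4074 to 6281 CPM in Treg libraries. Cox7a2, a subunit of cytochrome oxidase, was lower (log2 fold change −1.36 ± 0.33) and Tpi1, a glycolytic isomerase, was higher (0.94 ± 0.25). The share of counts from mitochondrial transcripts was 1.05% to 3.81% in Treg and 2.36% to 4.08% in CD4 libraries, and the part of this difference was not tested. Interferon response genes gave 2 higher of 22, Ifi44 among them, and class II presentation genes 1 of 14, Cd74, the invariant chain, both near the 6.68% of all genes called higher. The BCL-2 family gave 1 higher (Bmf) and 2 lower (Bcl2a1b and Bcl2a1d) of 15, beside 6.68% and 6.01% of all genes. The calls of Bmf and Bcl2a1d were lost in 6 and 14 of 25 settings, and Bcl2 itself did not pass (log2 fold change −0.38 ± 0.22).

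**Figure D4:**
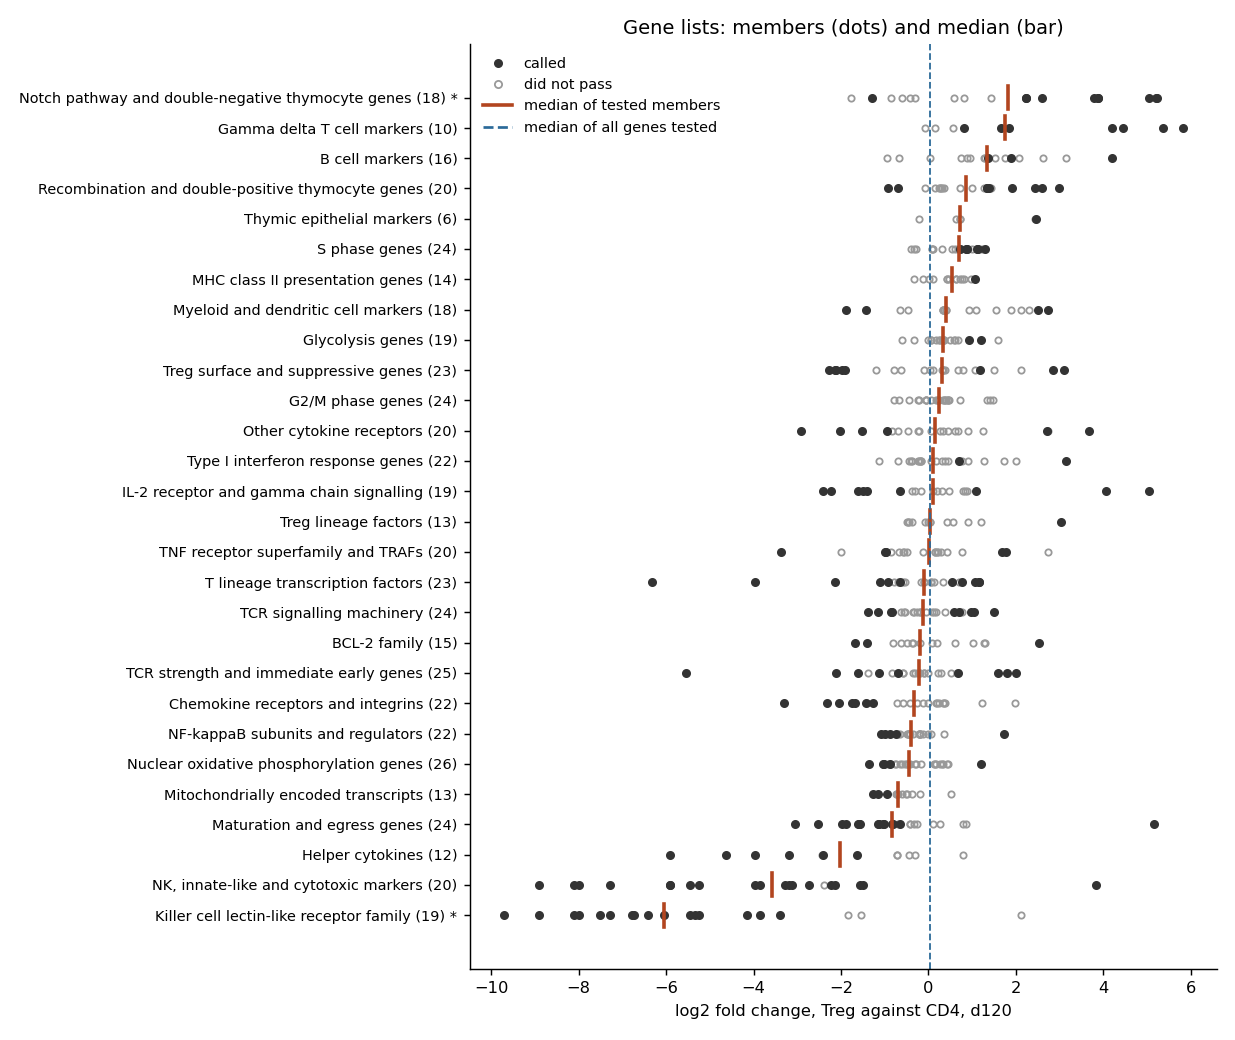
Log2 fold changes of Treg against CD4 libraries at d120 for the tested members of each gene list, with filled dots for called genes, open dots for those that did not pass and a bar at the list's median; the dashed line is the median over all genes (0.04) and an asterisk marks lists made after values were seen. The NK list (median −3.57) and the killer cell lectin-like family (−6.04) lie furthest to the left, and the Notch (1.82) and gamma delta (1.75) lists furthest to the right.

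The contrast was also fitted within each genotype. Within SOD1 libraries 322 genes were higher and 224 lower (2.58% and 1.79% of genes tested, 4.37% together), and within WT libraries 300 and 249 (2.4% and 1.99%, 4.4% together). Of these, 282 were called in both, which is 51.6% of the SOD1 and 51.4% of the WT calls, and 281 had the same sign. These counts depend on the tool: voom called 486 and 626 genes within SOD1 but 17 and 70 within WT. Leaving out 1 library gave 153 to 527 higher and 89 to 342 lower genes within SOD1, and 131 to 537 and 87 to 394 within WT. Foxp3 differed by 2.63 in SOD1 and 3.47 in WT libraries on the log2 scale, Il2ra by 5.11 and 4.95, Dntt by 3.3 and 2.69 and Klrd1 by −5.43 and −5.47. The test of the difference between genotypes called 2 genes of 12485 (0.016%), and 445 reached an unadjusted p under 0.05. No gene was called with voom, with a shared dispersion or without Treg WT 3, and without CD4 WT 1 there were 10 above and 61 below 0. Acaca, which encodes the enzyme that makes malonyl-CoA for fatty acid synthesis, was one of the 2. In WT libraries Acaca was at 7.39, 19.8 and 40.3 CPM in Treg and at 3.03, 1.36 and 0 CPM in CD4 cells, and in SOD1 libraries at 10.9, 8.71 and 5.19 CPM in Treg and at 31.6, 36.0 and 70.0 CPM in CD4 cells. The log2 fold change in SOD1 minus that in WT libraries was −6.24 (standard error 1.2, adjusted p = 0.00261). Aff4, a scaffold of the super elongation complex, was at 177, 204 and 228 CPM in WT Treg, 128, 119.9 and 134 CPM in SOD1 Treg, 119, 66.6 and 112 CPM in WT CD4 and 553, 158 and 433 CPM in SOD1 CD4 libraries, a difference of −2.61 (standard error 0.58, adjusted p = 0.0382), a call also lost on leaving out any of 9 of the 12 libraries. In both genes the 3 SOD1 CD4 libraries lay above the 3 WT CD4 libraries.

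At d30 the same populations were sorted in 11 libraries, 6 Treg (3 SOD1 and 3 WT) and 5 CD4 (3 SOD1 and 2 WT), and a joint fit of 15725 genes tested whether the contrast differed between days. Day and processing cannot be told apart. The contrast was shifted toward Treg at d120 in 422 genes (2.68%) and toward CD4 in 132 (0.839%), together 3.52% of genes. In this larger fit 2165 genes were higher (13.8%) and 1275 lower (8.11%) in Treg libraries at d120. At d30 alone, 507 genes were higher in Treg libraries (3.22%) and 556 lower (3.54%). For Foxp3 the contrast was 1.54 on the log2 scale at d30 against 3.1 at d120, a difference of 1.55 (adjusted p = 0.0173). Foxp3 at d30 ran from 34 to 75.6 CPM (median 48.8) in Treg and from 15 to 22.7 CPM (median 17.5) in CD4 libraries. The CD4 ranges of both days overlapped, and the Treg median was higher at d120. Il2ra differed by 4.96 at d30 and 5.08 at d120 (difference 0.12, adjusted p = 0.97).

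Class II presentation genes, which show antigen to CD4 T cells, differed between days. At d30, 11 of 14 were lower in Treg libraries and none higher (median −1.32), and 10 of 14 differed between days, all upward. Among all genes of the joint fit, 3.54% were lower at d30 and 2.68% differed upward between days. H2-Ab1, a chain of the class II molecule I-A, ran at d30 from 596 to 1454 CPM (median 883) in Treg and from 1313 to 4279 CPM (median 2249.6) in CD4 libraries, and at d120 from 938 to 1798 CPM (median 1512) and 286 to 1749.9 CPM (median 834). Its log2 fold change was −1.49 at d30 and 0.68 at d120 (difference 2.18, adjusted p = 0.000332). Cd74 behaved likewise, with −1.17 and 1.11 (difference 2.27, adjusted p = 0.000275). The H2-Ab1 median was thus higher at d120 than at d30 in Treg libraries and lower in CD4 libraries. These genes are mainly expressed by antigen-presenting cells, and 2 of 17 B cell markers and 3 of 20 myeloid markers also differed upward between days. The part of such cells was not tested.

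NK genes were lower in Treg libraries on both days. At d30, 15 of 20 were lower (3.54% over all genes) and 1 higher (3.22%), with a median of −3.07. Between days 4 of 20 differed (0.839% over all genes), each with a lower log2 fold change at d120. Ccl5 was not among those called at d30: it ran from 83.2 to 219 CPM (median 112) in Treg and from 79.9 to 125 CPM (median 97.4) in CD4 libraries, and at d120 from 26.6 to 62 CPM (median 42.5) against 164 to 671 CPM (median 359) (difference −3.42, adjusted p = 4.41e-10). Gzmb followed the same course, with log2 fold changes of −0.2 and −2.08 (difference −1.88, adjusted p = 8.4e-05), as did Ifng, with −0.65 and −3.92 (difference −3.27, adjusted p = 0.000388). Il7r differed by −0.14 at d30 and −1.56 at d120 (difference −1.42, adjusted p = 0.00739). In the other direction, Il10ra ran at d30 from 30.5 to 44.3 CPM (median 38) in Treg and from 27.4 to 52 CPM (median 36) in CD4 libraries, so that the groups overlapped, and the difference between days was 2.94 (adjusted p = 9.3e-12). In the S phase list 6 of 24 genes also differed upward between days, beside 2.68% of all genes. Recombination genes had no member that differed between days. Of these, 7 of 20 were higher at d30 in the joint fit (3.22% of all genes). At d120, 7 of 20 were higher in the fit of d120 alone (6.68% of all genes), and these are unlike fits.

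**Figure D5:**
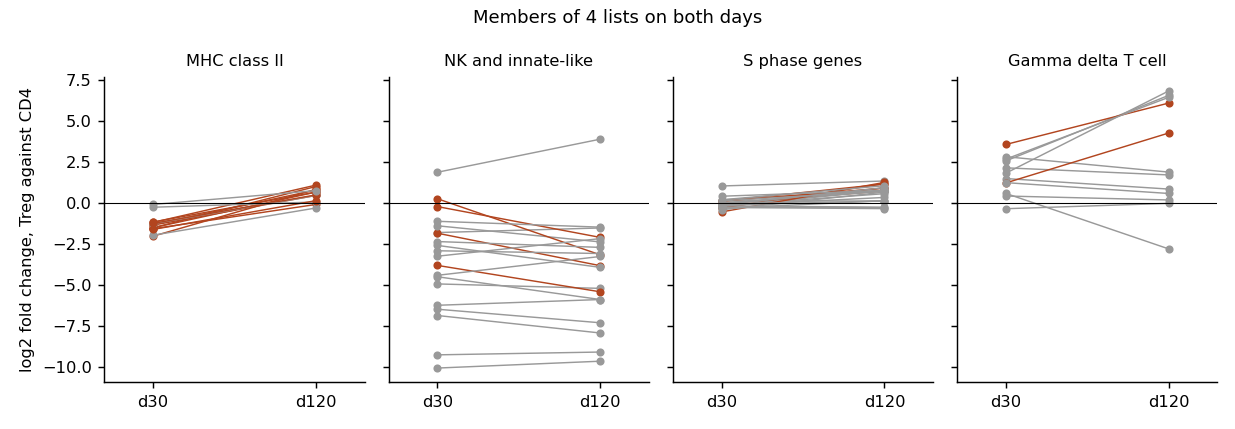
Log2 fold changes of Treg against CD4 libraries at d30 and d120 in the joint fit, with 1 line per tested member of the class II, NK, S phase and gamma delta lists and a horizontal line at 0. Class II genes lie mostly below 0 at d30 and around or above 0 at d120, whereas most NK genes lie below 0 on both days.

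Across the 12 libraries, the genes whose log2 CPM followed Foxp3 most closely included Bmp2k, a kinase gene (Spearman correlation 0.944), Cluh, which binds messenger RNAs of mitochondrial proteins (0.937), Maged1 (0.93) and Arhgap19 (0.909). Within the 6 Treg libraries alone the correlations were 0.714 for Bmp2k, 0.714 for Cluh, 0.429 for Maged1 and 0.829 for Arhgap19. The values over 12 libraries rest on the difference between populations, and libraries within a population share their depth class.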

How the data were processed

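The deposited sorted-cell table holds whole-number counts per Ensembl gene, 55487 genes by 46 libraries, without normalization by the authors as far as the values show. Per the submitters' processing notes, DESeq2 and the mouse build mm10 appear without any stated role; the aligner, the counter and the strand setting were not stated in the sources read. Symbols were matched for 55094 genes. From the counts, edgeR 4.0.16 in R 4.3.3 (TMM scaling, filterByExpr by the 4 groups, a dispersion per gene, quasi-likelihood test, genotype as covariate, Benjamini-Hochberg over all genes tested, called at adjusted p under 0.05) gave each fold change, whose error is a standard error over 12 libraries. CPM is the count scaled to 1000000 filtered counts per library after TMM. Interactions used fits of group means, over 12 libraries for genotype and 23 for day. DESeq2 1.42.0, limma 3.58.1 voom and the other alternatives are in the closing section. On simulated data the share of false calls was above the nominal one, and most small changes were missed. Sequences are RefSeq's (GRCm38.p6), read with Python 3.11.15.

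The members of the comparison and all gene lists were chosen with earlier results of these data known. Named genes were Foxp3, Il2ra, Cd4 and Cd8a, then, for each direction, at most 15 called genes ranked by p, each at 5 CPM or more with groups that did not overlap, from each list the first 4 tested members and up to 6 more by p, and for each interaction up to 8 per direction. Predicted and receptor or immunoglobulin segment genes were left out of the rankings. Trac, Trbc1, Trbc2 and a few list members outside this rule were chosen after their values were seen. Genotype came from sample titles, also for the d30 columns, whose names all begin with SOD1. Whole-thymus and lymph node libraries were not used here, and a few genes that these rules name are not reported here.

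Total counts per library ran from 837050 to 34151147, and a count of 0 over a group was given a floor of 3 counts. Libraries that share a label number were treated as unpaired.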

Additional observations from a re-analysis of the deposited data

Results flagged for a closer look

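Tests of a difference between genotypes or days picked out the genes given here. Between genotypes, the log2 fold change of Treg against CD4 in SOD1 minus that in WT libraries was -6.24 for Acaca and -2.61 for Aff4. Between days, the log2 fold change at d120 minus that at d30 was above 0 for Il10ra (2.94), Nnt (6.63), the mitochondrial transhydrogenase, Scin (5.86), Dbnl (1.56), Rasgrp3 (4.14), Lat2 (2.0) and Rasgef1b (2.66). It was below 0 for Serpinb9 (-2.81), the inhibitor of granzyme B, Ccl5 (-3.42), Nop58 (-1.57), Vgll4 (-1.46), Gzmb (-1.88), Sytl3 (-2.0), Zfp672 (-2.30) and Ifng (-3.27). The table holds 2 gene IDs for Nnt, between which reads may be divided, so its value is uncertain. Serpinb9 ran at d30 from 75.4 to 184 CPM (median 92.2) in Treg and from 59.6 to 93.7 CPM (median 69.9) in CD4 libraries, and at d120 from 25.8 to 48.2 CPM (median 39.2) against 114 to 313 CPM (median 169.9), without overlap at d120. Whether processing that differed between days has a part in these values was not tested, since day and processing cannot be told apart.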

How the results depend on the processing

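Of 146 named genes called in the comparison at d120, 76 kept the call in every alternative that tested them, and none reversed. After thinning 141 of the 146 were tested, and 145 in 7 other alternatives. Genes higher and lower numbered 834 and 750, and 932 and 938 with DESeq2, 1038 and 966 with voom, 805 and 813 with median-of-ratios scaling, and 594 and 692 after every library was thinned to the lowest total (chosen after seeing the data). In at least 1 direction they moved by over 1.5 times with a fit of both days (2165 and 1275), a shared dispersion (550 and 480), no filter on low counts (921 and 491), without libraries under 2000000 counts (1412 and 1176), in label numbers 1 to 3 alone (1846 and 1262) and in label numbers 4 to 6 alone (338 and 216), the last pair chosen after seeing the data. Leaving out 1 library gave 600 to 1104 higher and 477 to 949 lower genes. The lowest counts came without Treg SOD1 2 (higher) and without CD4 SOD1 2 (lower).

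Within SOD1, 322 and 224 became 486 and 626 with voom and 91 and 79 with a shared dispersion, and 134 were lower with no filter; leaving out 1 library gave 153 to 527 and 89 to 342. Within WT, 300 and 249 became 17 and 70 with voom and 66 and 64 with a shared dispersion, and 125 were lower with no filter; leaving out 1 library gave 131 to 537 and 87 to 394. For the difference between days, 132 genes below 0 became 278 with DESeq2 and 64 with no filter, and leaving out 1 library gave 160 to 894 above and 40 to 257 below 0, lowest without CD4 d30 WT 2. For the difference between genotypes, 0 above and 2 below 0 became 4 above with DESeq2, 8 and 5 with no filter, 0 below with voom and 0 below with a shared dispersion; leaving out 1 library gave 0 to 10 above and 0 to 61 below, highest without CD4 WT 1. The causes were not tested.

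Deviations of Treg and CD4 libraries with the same label number correlated at 0.0885 to 0.18, above 0.1 in 5 of 6 pairs. The rule asked for over 0.1 in every pair, so they were not taken as paired. A replicate block on the label number gave 1076 and 726 genes at d120, 328 and 232 within SOD1, 275 and 222 within WT, and 4 and 5 for the difference between genotypes. All 12 libraries correlated best with their own number, and the labels share each number between a Treg and a CD4 library. Whether a number stands for a shared source is not stated, and the main fit ignores it. The lower depth of the CD4 libraries limits what can be seen of low genes: 49 called genes were at 0 in all 6 CD4 libraries.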
